A study of Mus musculus with 11 samples.

Results

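Transcripts of 39 lysosomal genes were followed in cultured mesenchymal cells from E15 fetal mouse lungs of WT, Sp3+/- and Sp3-/- genotype. Sp3 encodes a zinc finger transcription factor that binds GC boxes. The 39 genes were a list chosen by symbol, of 24062 genes counted: 13 cathepsins, the membrane proteins Lamp1, Lamp2, Npc1 and Mcoln1, the transcription factors Tfeb, Tfe3 and Mitf, and 19 other acid hydrolases, cofactors and lysosome-associated glycoproteins. All 39 were counted in the files and passed the filter of CPM above 1 in at least 1 library, 37 of them already in a WT library, and Ctse and Ctsw only through libraries of a mutant genotype. The question asked was which of them differed between genotypes, and which followed the macrophage content of the libraries, read from Csf1r and Cd68, and which did not.

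There were 11 RNA-seq libraries of such cultures: 4 from WT (Sp3+/+), 4 from Sp3+/- and 3 from Sp3-/- fetuses, all at E15, from timed matings of Sp3+/- mice. Cells had been freed with collagenase, selected by rapid adhesion to culture plastic and passaged, and no sort is described, so other adherent cells of the lung could be carried along. Sp3 was deleted in the germ line, so every cell of a mutant culture, macrophages included, carried the mutation. The labels do not say whether each library came from its own fetus, so p-values measure the spread between these libraries. Libraries are named by genotype and label number, and all values by library are given in the order WT 468-4, 685-2, 697-1 and 697-3, then Sp3+/- 468-3, 685-5, 685-7 and 697-4, then Sp3-/- 685-1, 697-2 and 697-5.

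Lysosomes degrade material delivered by endocytosis, phagocytosis and autophagy with hydrolases that work in an acid lumen. Most of these enzymes reach the lysosome through mannose 6-phosphate tags and their receptors, and cathepsins are its main proteases. TFEB, TFE3 and MITF are related basic helix-loop-helix factors that bind a palindromic E-box in the promoters of many lysosomal genes. Every cell has lysosomes, but professional phagocytes such as macrophages hold many, and cathepsin S and Gpnmb are far higher in them than in fibroblasts. In a bulk library, more cells of such a type and more RNA per cell cannot be told apart.

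A library held 9849111 to 59297495 reads on genes. Sp3 itself was at 6.52, 5.92, 6.75 and 6.30 in WT, 5.70, 5.98, 6.16 and 5.81 in Sp3+/- and 4.24, 4.20 and 3.86 in Sp3-/- on the log2 CPM scale, lower in all 3 Sp3-/- libraries than in any other (log2 -2.30 ± 0.21, SE, against WT, adjusted p = 0.0061). All 10 mesenchymal markers checked, such as Col1a1 and Pdgfra, were above 1 CPM in each genotype, with summed CPM of 13130 to 22180 in WT and 7121 to 19170 in Sp3-/-. The macrophage index, the mean log2 CPM of Csf1r and Cd68, was 7.52, 5.17, 5.11 and 5.33 in WT, 4.47, 5.11, 4.92 and 7.23 in Sp3+/- and 7.39, 8.93 and 8.73 in Sp3-/-. It thus formed 2 separate sets, 6 libraries between 4.47 and 5.33 and 5 libraries between 7.23 and 8.93. The second set holds all 3 Sp3-/- libraries, WT 468-4 and Sp3+/- 697-4, and is also the set whose titles carry no numeric suffix, so the index and whatever the suffix stands for cannot be told apart between the sets. The 24 macrophage genes of a wider list, all above 1 CPM in each genotype, summed to 880.6 to 4771 CPM in WT, 524.3 to 4291 in Sp3+/- and 4477 to 16060 in Sp3-/-. Of the other cell types checked, the 5 mesothelial markers in the files summed to 526.2 to 1117 CPM in WT and 1172 to 4167 in Sp3-/-, the 8 epithelial to 20.84 to 46.6 and 55.68 to 156.2, and the 8 endothelial to 35.89 to 93.83 and 68.54 to 121.6, and their part in the results was not tested. Lymphoid and erythroid markers reached 0.647 and 16.3 CPM in sum at most.

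Promoter sequence was taken from RefSeq (GRCm38.p6, 250 bases before to 50 after the annotated start) for the 33 members with an entry. The 8 base palindrome TCACGTGA, the core that TFEB and MITF share, was in a promoter of 4 of these 33, Ctsa (the second of 2 promoters listed), Ctsd, Gla and Mcoln1, against 1.12% of all 27025 genes with an entry and 0.974% of all promoters. Ctsa encodes the protective protein cathepsin A that holds neuraminidase and beta-galactosidase together, Ctsd the aspartic protease cathepsin D, Gla alpha-galactosidase A and Mcoln1 the calcium channel mucolipin. Each of the 4 rose from WT to Sp3-/- at an adjusted p below 0.05 (edgeR, values further on). So did 16 of all 39 members, these 4 included, and 8.76% of all genes. In Ctsd the genotypes overlapped, with WT 468-4 (12.67) above Sp3-/- 685-1 (12.49). With the title suffix as a term in the fit none of the 4 passed (Ctsa 0.065, Ctsd 0.17, Gla 0.076 and Mcoln1 0.072, adjusted p by edgeR). Nor did any with the macrophage index in the fit. Whether the core bears on the rise of these 4 genes was not tested. Their promoters are printed 5′ to 3′ on the strand of the gene because they carry this core, which stands in capitals.
Ctsa, chr2:164833523-164833822, plus strand: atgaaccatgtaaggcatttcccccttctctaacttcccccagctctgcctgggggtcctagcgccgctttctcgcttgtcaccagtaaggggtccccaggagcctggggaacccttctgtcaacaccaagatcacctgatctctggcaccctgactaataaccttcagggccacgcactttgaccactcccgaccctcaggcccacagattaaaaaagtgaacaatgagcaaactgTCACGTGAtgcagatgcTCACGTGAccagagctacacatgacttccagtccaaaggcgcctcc
Ctsd, chr7:142387778-142388077, minus strand: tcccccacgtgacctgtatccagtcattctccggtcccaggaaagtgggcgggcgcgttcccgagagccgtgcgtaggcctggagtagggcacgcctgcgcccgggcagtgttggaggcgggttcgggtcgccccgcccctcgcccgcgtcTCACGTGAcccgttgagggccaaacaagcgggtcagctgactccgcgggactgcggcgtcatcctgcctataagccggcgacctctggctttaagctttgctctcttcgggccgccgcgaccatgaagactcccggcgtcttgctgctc
Gla, chrX:134600956-134601255, minus strand: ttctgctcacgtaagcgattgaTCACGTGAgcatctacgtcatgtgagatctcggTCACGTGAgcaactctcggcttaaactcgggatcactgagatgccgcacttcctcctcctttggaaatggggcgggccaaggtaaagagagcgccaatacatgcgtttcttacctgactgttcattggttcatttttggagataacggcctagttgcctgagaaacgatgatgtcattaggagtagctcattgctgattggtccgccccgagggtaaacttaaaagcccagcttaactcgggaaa
Mcoln1, chr8:3500269-3500568, plus strand: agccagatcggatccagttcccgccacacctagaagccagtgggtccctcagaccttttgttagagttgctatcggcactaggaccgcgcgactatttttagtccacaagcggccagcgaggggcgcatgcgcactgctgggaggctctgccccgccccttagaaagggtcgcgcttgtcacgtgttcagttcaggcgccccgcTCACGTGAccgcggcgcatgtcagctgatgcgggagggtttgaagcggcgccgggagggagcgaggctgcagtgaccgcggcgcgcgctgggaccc
The core lay 13 bases before and 4 after the start in Ctsa, 99 before it in Ctsd, 228 and 195 before it in Gla and 46 before it in Mcoln1. The shorter E-box CACGTG, which the core contains, was in 11 of the 33 members (8.09% of genes), and the GC box GGGCGG in 23 (38.2% of genes). The 23 include Neu1, Tfeb, Mitf, Gla and Mcoln1, which passed between Sp3-/- and WT, and Smpd1, Ctsz, Hexa, Glb1 and Npc2, which did not. Ctsa and Tpp1, which passed, had no GC box. Both strands were searched. A match of letters is a description, and binding by Sp3, TFEB or MITF was not measured here.

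Many of the lysosomal transcripts were higher in Sp3-/- cells than in WT cells. Of the 37 members above 1 CPM in a WT library 15 rose and 0 fell at an adjusted p below 0.05 (edgeR's quasi-likelihood test, WT and Sp3-/- libraries), where 8.76% of all 14025 genes tested rose and 9.77% fell. Ctse, which entered only through mutant libraries, also passed, which is no support for a difference, and makes 16 of 39. The median log2 fold change was 0.66, with or without Ctse and Ctsw, against 0 for all genes, and was lower, at 0.43, with the title suffix as a term and at 0.37 in the libraries without a suffix. In 16 members, Ctse among them, every Sp3-/- library lay above every WT library and in 0 below, where 15.1% of all genes lay above. For Ctse the lack of overlap is no support either, since it entered only through mutant libraries. The set of 16 without overlap is not the same as the 16 called, since it holds Lamp2 and Gaa and lacks Ctsd and Psap. The 16 past the threshold were the cathepsins Ctsa, Ctsb, Ctsd, Ctse, Ctsf and Ctso, the glycosidases Gla, Neu1, Man2b1 and Naglu, the peptidase Tpp1, Psap, Grn, Mcoln1 and the factors Tfeb and Mitf. The count rests on few libraries. Without Sp3-/- 697-2, the library of the highest index, 1 member passed, Neu1, and 2.01% of all genes did. Without WT 685-2, WT 697-1, WT 697-3 or Sp3-/- 697-5 in turn 4 passed, Ctse, Neu1, Tfeb and Naglu each time, where 6.39%, 5.48%, 5.74% and 10.1% of all genes passed, so these counts are no result about the members. Without WT 468-4, the WT library of high index, 23 passed, and 29.9% of all genes.

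**Figure D1:**
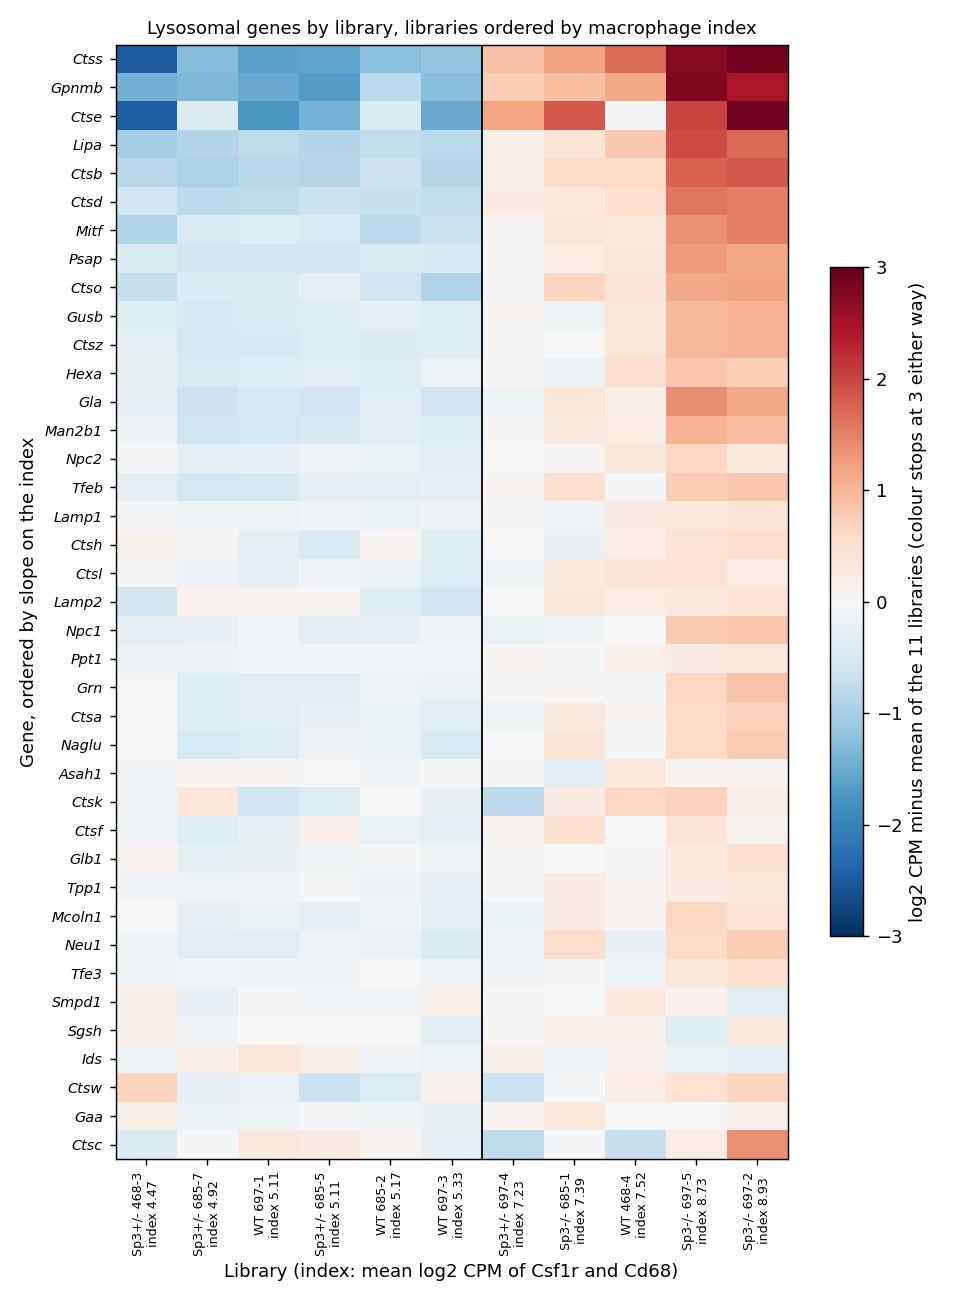
Heat map of the 39 lysosomal genes in 11 libraries. Rows are genes ordered by their slope on the macrophage index, columns are libraries ordered by the index (4.47 at the left, 8.93 at the right), and colour is log2 CPM minus the mean of the 11 libraries. The vertical line parts the 6 libraries of low index from the 5 of high index, and the upper rows change colour at it. The lower rows change less, and some of them, such as Neu1, are higher only in the Sp3-/- libraries.

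No member differed detectably between Sp3+/- and WT cells. None passed the test between Sp3+/- and WT (edgeR, 0 of 39), where 0% of all 14130 genes passed, 246 genes were below an unadjusted p of 0.05 with 0 members among them, and DESeq2 and limma-voom also called 0 genes. The estimates ran from -0.67 for Ctss to 0.68 for Ctse, with a median of -0.05. The 95% interval was narrow for Neu1 (-0.07 to 0.29) and Tpp1 (-0.15 to 0.22) and wide for Ctss (-2.65 to 1.31) and Gpnmb (-2.03 to 1.25), so large changes of the latter pair would not have been detected. Against Sp3+/-, 21 of the 37 members above 1 CPM in a WT library rose in Sp3-/- cells and 0 fell (13% of all genes rose and 12.5% fell). With Ctse, whose call is no support for a difference, it was 22 of 39, and the median log2 difference was 0.72. This comparison shares its Sp3-/- libraries with the comparison against WT. Ctss, Ctsz, Gusb, Npc1, Lipa, Tfe3 and Gpnmb passed against Sp3+/- but not against WT, and Ctsf passed only against WT. Below, a genotype difference is that between Sp3-/- and WT unless Sp3+/- is named. Values against WT and against Sp3+/- stood side by side at 0.90 and 0.79 for Neu1, 0.94 and 0.93 for Tfeb, 1.82 and 2.04 for Ctsb and 0.37 and 0.57 for Ctsk.

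The macrophage index was then put beside genotype in a fit of all 11 libraries. The slope is the log2 change of a gene for 1 log2 unit of the index among libraries of the same genotype, so that 1 means in proportion to the index and 0 no change with it. Brackets after a slope give its 95% interval, and all differences between genotypes are log2 values ± SE. As a yardstick, 21 of the 22 macrophage genes outside the index had a slope that passed the test, with a median of 0.99 (range 0.46 to 1.17), and 0 of them passed between Sp3-/- and WT at equal index by edgeR (3 at an unadjusted p below 0.05), 1 by DESeq2 and 0 by limma-voom. Among the 37 members above 1 CPM in a WT library 14 rose with the index and 0 fell, and with Ctse 15 of 39, where 8.56% of all genes rose and 7.45% fell, and the median slope was 0.12 against -0.01 for all genes. The 95% interval reached or lay above 1 in 3 members, Ctss, Gpnmb and Ctse, and lay between 0 and 1 in 15. In the remaining 21 it held 0 and ended below 1, at 0.39 at most. CD68 is itself a lysosomal membrane protein, and with the index taken from Csf1r alone 14 members passed, from Cd68 alone 17 and from the wider macrophage list 14 (14.3%, 17% and 13.6% of all genes). Within a genotype the index varies mainly through WT 468-4, Sp3+/- 697-4 and the gap among Sp3-/- libraries. Without WT 468-4 5 members passed, Ctsb, Ctsd, Ctss, Lipa and Gpnmb (3.96% of all genes), and without both WT 468-4 and Sp3+/- 697-4, a choice made after the data were seen, only Ctss passed of the 39 (slope 1.18, adjusted p = 0.019, 1.01% of all genes). With the title suffix as a further term 11 members passed, where 2.19% of all genes did, and the grouping moved. Npc1 (0.64, adjusted p = 0.018) and Grn (0.49, adjusted p = 0.05, just below the threshold before rounding) then passed, Ctsb and Ctsd rose to 0.81 and 0.83, and Ctse, Ctso, Ppt1, Tfeb, Mitf and Gpnmb no longer passed. In that fit WT 468-4 and Sp3+/- 697-4 are each the only library of their genotype without a suffix. Its slopes thus rest mainly on Sp3-/- 685-1 (index 7.39) against Sp3-/- 697-2 (8.93) and 697-5 (8.73). These also differ in the first label number, so index and label number cannot be told apart there. Because the libraries fall into 2 sets, no correlation over all 11 is given.

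**Figure D2:**
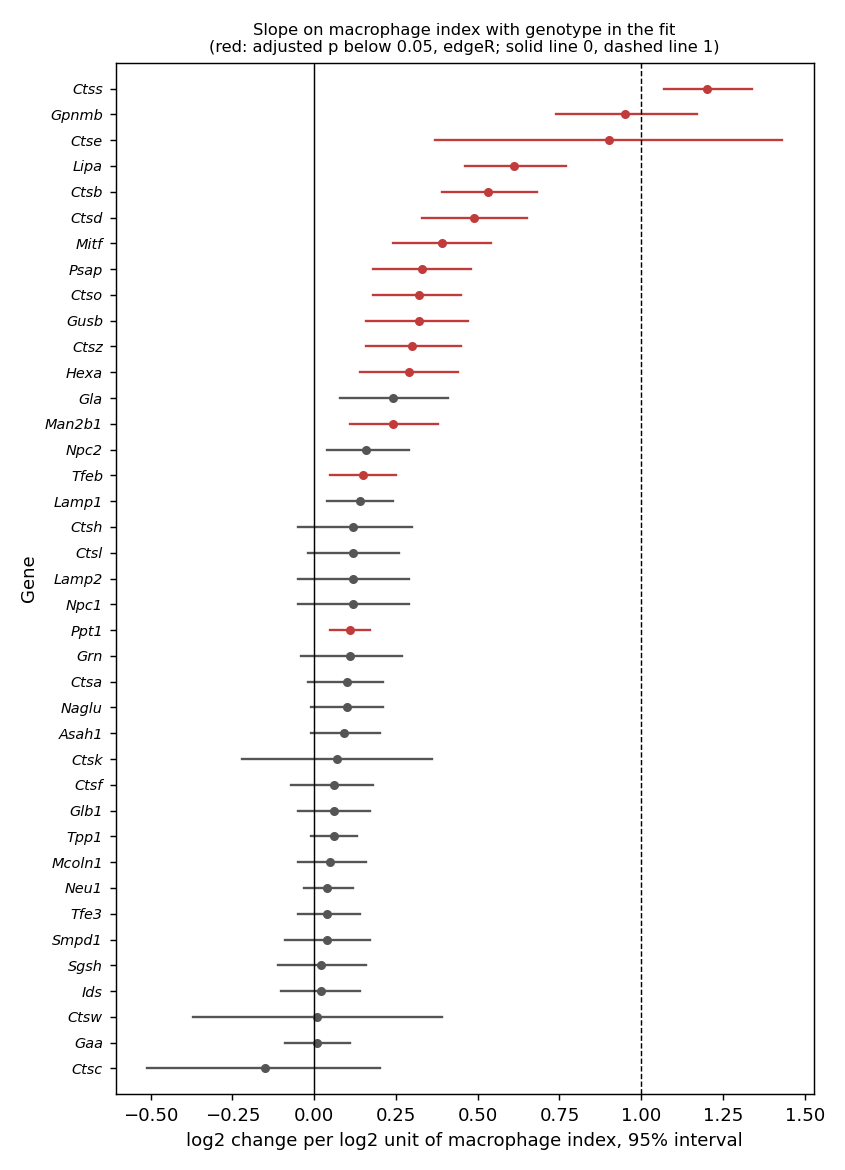
Slope of each of the 39 genes on the macrophage index, in log2 change per log2 unit with its 95% interval, from the fit of 11 libraries with genotype. Red marks the 15 genes that passed the test, Ctse from few reads, and only Ctss, Gpnmb and Ctse reach the dashed line at 1, among these 39 genes.

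Cathepsin S, the cysteine protease that trims the invariant chain of MHC class II, followed the index most closely. Ctss was at 8.63, 5.70, 5.35 and 5.78 in WT, 4.46, 5.40, 5.67 and 7.84 in Sp3+/- and 8.17, 9.85 and 9.70 in Sp3-/-. The 6 libraries of low index reached 5.78 at most and the 5 of high index were at 7.84 or more, whatever the genotype. Its slope was 1.20 (1.07 to 1.34, adjusted p = 6.4e-07), so its interval lay above 1, and Sp3-/- minus WT was 2.33 ± 0.89 (SE, adjusted p = 0.1) without the index and -0.23 ± 0.22 (adjusted p = 0.56) at equal index. Gpnmb, a transmembrane glycoprotein of phagocytes and osteoclasts, was at 11.46, 9.49, 8.79 and 9.03 in WT, 8.85, 8.62, 8.95 and 11.03 in Sp3+/- and 11.21, 12.74 and 13.10 in Sp3-/-. It had a slope of 0.95 (0.74 to 1.17, adjusted p = 9.1e-05) and a log2 difference of 2.42 ± 0.76 (SE, adjusted p = 0.062) between Sp3-/- and WT, or 0.20 ± 0.36 (adjusted p = 0.78) at equal index. In both genes the genotype difference missed the threshold, though with the first label number as a block it passed (3.63, adjusted p = 0.0041 for Ctss and 3.28, adjusted p = 0.0094 for Gpnmb, edgeR), and WT 468-4 lay above the Sp3-/- library 685-1.

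Cathepsin E, an aspartic protease of immune cells, was the scarcest member. Its counts were 10, 3, 1 and 2 reads in WT, 0, 4, 9 and 15 in Sp3+/- and 43, 117 and 14 in Sp3-/-. On the log2 CPM scale this was -1.53, -1.89, -3.24 and -3.0 in WT, -3.93, -2.90, -1.91 and -0.31 in Sp3+/- and 0.35, 1.44 and 0.55 in Sp3-/-, with all Sp3-/- libraries highest. It entered the fits only through mutant libraries, so the fitted difference of 3.57 and slope of 0.90 are given as a description, without a test.

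Cathepsins B and D, the abundant cysteine and aspartic proteases of the lysosome, rose with the index at a slope below 1 in the fit of 11 libraries with genotype. The slopes of Ctsb and Ctsd were 0.81 and 0.83 with the title suffix as a further term. They were 0.94 and 0.83 within the 5 libraries without a suffix and 0.05 and -0.17 within the 6 with one. Whether they differ from 1 in those fits was not tested. Ctsb was at 12.07, 10.87, 10.66 and 10.65 in WT, 10.66, 10.64, 10.56 and 11.69 in Sp3+/- and 12.11, 13.35 and 13.27 in Sp3-/-. WT 468-4 and Sp3-/- 685-1 were nearly equal, and the other Sp3-/- libraries were the highest of all. Sp3-/- exceeded WT by 1.82 ± 0.46 (SE, adjusted p = 0.036), or 3.52-fold, with a slope of 0.53 (0.39 to 0.68, adjusted p = 0.00042) and 0.47 ± 0.24 (adjusted p = 0.26) left at equal index. Ctsd was at 12.67, 11.49, 11.41 and 11.42 in WT, 11.58, 11.52, 11.37 and 12.41 in Sp3+/- and 12.49, 13.68 and 13.76 in Sp3-/-. Here WT 468-4 lay above Sp3-/- 685-1, so the genotypes overlapped, and the difference was 1.56 ± 0.44 (SE, adjusted p = 0.047), the slope 0.49 (0.33 to 0.65, adjusted p = 0.0016) and the difference at equal index 0.32 ± 0.27 (adjusted p = 0.51). Cathepsin O, a little studied cysteine protease, was at 4.34, 3.37, 3.52 and 3.05 in WT, 3.28, 3.67, 3.56 and 3.92 in Sp3+/- and 4.61, 5.18 and 5.10 in Sp3-/-, without overlap between Sp3-/- and WT, and had 1.33 ± 0.31 (SE, adjusted p = 0.03) with a slope of 0.32 (0.18 to 0.45, adjusted p = 0.0073). Cathepsin Z, a carboxypeptidase, was at 8.79, 8.02, 7.94 and 8.07 in WT, 8.12, 8.03, 7.92 and 8.46 in Sp3+/- and 8.43, 9.46 and 9.41 in Sp3-/-. Its slope passed the test at 0.30 (0.16 to 0.45, adjusted p = 0.012), and its genotype difference of 0.93 ± 0.31 (SE, adjusted p = 0.072) did not.

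Cathepsins K and L passed neither test, but with the first label number as a block Ctsl did between Sp3-/- and WT (0.60, adjusted p = 0.035, edgeR). Cathepsin K is the collagenase of osteoclasts and cathepsin L a broad endopeptidase of most cells. Ctsk was at 5.37, 4.75, 4.18 and 4.54 in WT, 4.65, 4.36, 5.10 and 3.96 in Sp3+/- and 4.99, 4.95 and 5.45 in Sp3-/-, with its lowest value in Sp3+/- 697-4, a library of high index. Ctsk and Ctss are neighbours on chromosome 3 (GRCm38.p6, chr3:95499210-95509387 and chr3:95526786-95556405), and the slope of Ctsk was 0.07 (-0.22 to 0.36, adjusted p = 0.74) where that of Ctss was 1.20. Ctsl was at 11.30, 10.73, 10.62 and 10.53 in WT, 10.87, 10.80, 10.73 and 10.79 in Sp3+/- and 11.22, 11.13 and 11.35 in Sp3-/-, all within 0.82 of each other, with a slope of 0.12 (-0.02 to 0.26, adjusted p = 0.22). Between Sp3-/- and WT the estimates were 0.37 ± 0.28 (SE, adjusted p = 0.38) for Ctsk and 0.41 ± 0.21 (SE, adjusted p = 0.2) for Ctsl. Cathepsins A and F, a carboxypeptidase and a cysteine protease, were higher in every Sp3-/- library than in any WT library without a slope that passed. Ctsa was at 9.59, 9.33, 9.19 and 9.21 in WT, 9.52, 9.28, 9.16 and 9.38 in Sp3+/- and 9.79, 10.22 and 10.12 in Sp3-/- and rose by 0.72 ± 0.16 (SE, adjusted p = 0.025), with a slope of 0.10 (-0.02 to 0.21, adjusted p = 0.22). Ctsf was at 6.47, 6.28, 6.23 and 6.18 in WT, 6.34, 6.64, 6.12 and 6.57 in Sp3+/- and 6.94, 6.57 and 6.85 in Sp3-/- and rose by 0.50 ± 0.12 (SE, adjusted p = 0.03), with a slope of 0.06 (-0.07 to 0.18, adjusted p = 0.5). The remaining cathepsins passed neither test. Ctsc, the activator of granule serine proteases, ranged from 5.38 to 7.52 and was highest in Sp3-/- 697-2 and lowest in Sp3+/- 697-4. Ctsh, an aminopeptidase, ranged from 5.02 to 6.0, and Ctsw, a protease of cytotoxic lymphocytes, from -1.13 to 0.17, with the 8 lymphoid markers at 0.647 CPM in sum at most.

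**Figure D3:**
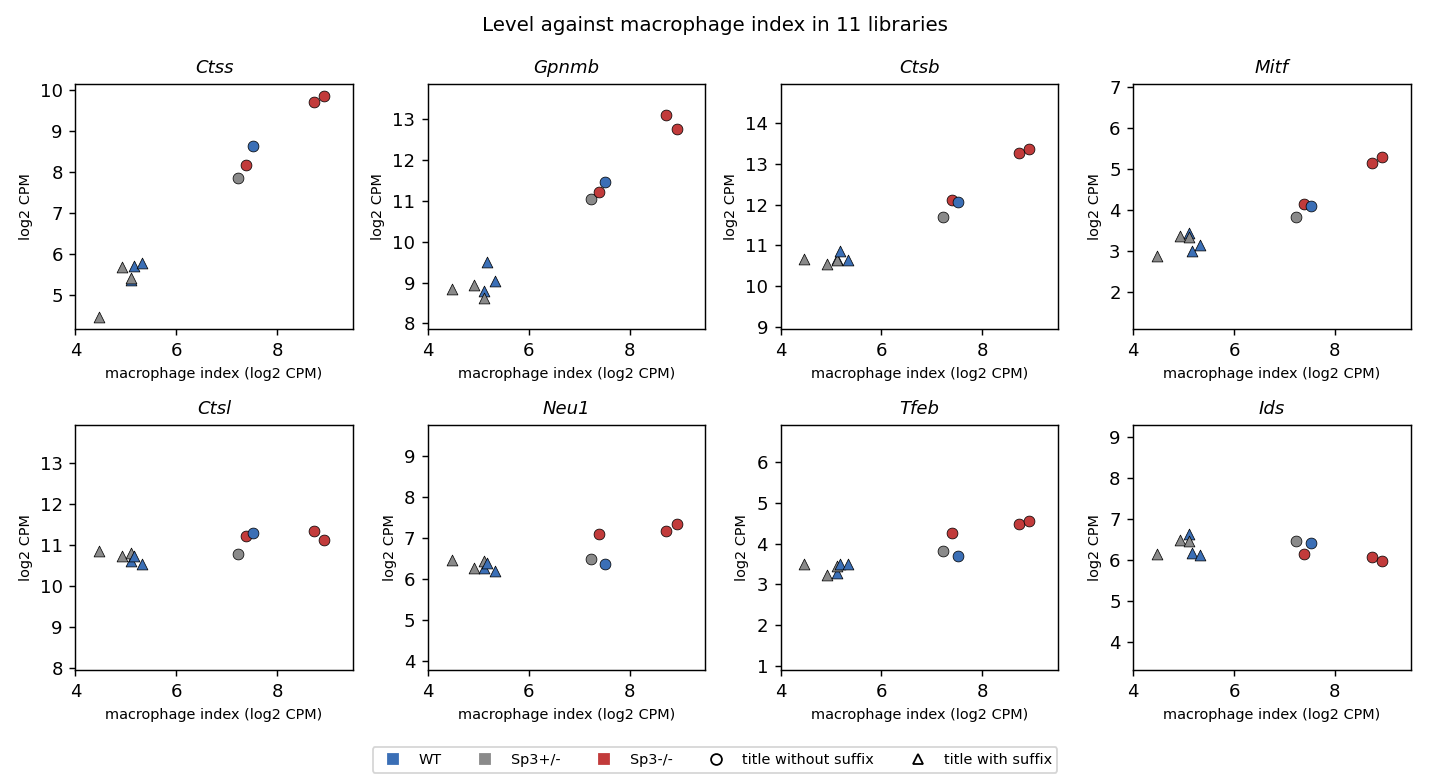
Level of 8 genes (log2 CPM, each panel spanning 6 log2 units) against the macrophage index in the 11 libraries, coloured by genotype, with circles for titles without a suffix and triangles for titles with one. Ctss and Gpnmb climb with the index across genotypes, Ctsb and Mitf climb less, Ctsl and Ids stay nearly level, and the 3 Sp3-/- libraries of Neu1 (7.11 to 7.34) lie above all others (6.19 to 6.49) at low and high index.

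Among enzymes of lipids, Lipa and Psap moved with the index. Lipa encodes the acid lipase that frees cholesterol from its esters, and Psap the precursor of the saposins that present sphingolipids to their hydrolases. Lipa was at 9.01, 7.48, 7.45 and 7.39 in WT, 7.19, 7.34, 7.33 and 8.41 in Sp3+/- and 8.61, 9.90 and 10.17 in Sp3-/-. The slope was 0.61 (0.46 to 0.77, adjusted p = 0.00027), and the genotype difference was 1.69 ± 0.52 (SE, adjusted p = 0.061) without the index and 0.17 ± 0.26 (adjusted p = 0.74) at equal index. Psap was at 11.51, 10.75, 10.62 and 10.69 in WT, 10.76, 10.63, 10.62 and 11.21 in Sp3+/- and 11.41, 12.35 and 12.45 in Sp3-/-, and WT 468-4 overlapped with the Sp3-/- libraries. It rose by 1.20 ± 0.33 (SE, adjusted p = 0.043) in Sp3-/- cells, with a slope of 0.33 (0.18 to 0.48, adjusted p = 0.01). Ppt1, the thioesterase that removes palmitate from proteins, was at 7.42, 7.19, 7.19 and 7.20 in WT, 7.11, 7.19, 7.10 and 7.34 in Sp3+/- and 7.23, 7.56 and 7.53 in Sp3-/-, a small range in which its slope of 0.11 (0.05 to 0.17, adjusted p = 0.028) still passed. Asah1 and Smpd1, acid ceramidase and acid sphingomyelinase, gave negative estimates between Sp3-/- and WT of -0.13 and -0.14 that did not pass, and ranged from 8.99 to 9.64 and from 6.41 to 7.00. The cholesterol exporters Npc1 and Npc2 ranged from 7.58 to 8.74 and from 9.27 to 10.23. Neither passed between Sp3-/- and WT, and Npc1 stood out only in the Sp3-/- libraries 697-2 and 697-5 (8.74 and 8.69, against 7.75 in 685-1).

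Of the members that rose in Sp3-/- cells, neuraminidase 1 was the one whose genotype difference changed least when the index entered the fit. Neu1 encodes the sialidase that cathepsin A protects, and lies on chromosome 17 (GRCm38.p6, chr17:34931253-34937297). It was at 6.36, 6.38, 6.28 and 6.19 in WT, 6.47, 6.44, 6.27 and 6.49 in Sp3+/- and 7.11, 7.34 and 7.16 in Sp3-/-. All 3 Sp3-/- libraries lay above all 8 others. Of the 2 others high in macrophage genes, WT 468-4 lay within the range of the rest, and Sp3+/- 697-4 was the highest of these 8 by little (6.49, with Sp3+/- 468-3 at 6.47). The rise was 0.90 ± 0.09 (SE, adjusted p = 0.0068), or 1.87-fold, the slope 0.04 (-0.03 to 0.12, adjusted p = 0.43) and the difference at equal index 0.79 ± 0.12 (adjusted p = 0.01). It was the only member of 39 called at equal index, where 3.16% of all genes were called higher and 3.81% lower, so this count is no result about the members. The median of the members at equal index was 0.25 against 0.01 for all genes. The call at equal index was lost without WT 468-4 (0.77, adjusted p = 0.075) or without Sp3+/- 697-4 (0.79, adjusted p = 0.058), while the estimate hardly moved. Naglu, which removes N-acetylglucosamine from heparan sulphate, was at 6.53, 6.38, 6.19 and 6.12 in WT, 6.59, 6.41, 6.13 and 6.58 in Sp3+/- and 6.97, 7.34 and 7.17 in Sp3-/-, again with no overlap, and rose by 0.85 ± 0.13 (SE, adjusted p = 0.012) with a slope of 0.10 (-0.01 to 0.21, adjusted p = 0.18) and 0.58 ± 0.18 (adjusted p = 0.08) at equal index. Gla was at 6.84, 6.33, 6.18 and 6.06 in WT, 6.37, 6.09, 6.04 and 6.51 in Sp3+/- and 7.02, 7.84 and 8.07 in Sp3-/-, rose by 1.33 ± 0.29 (SE, adjusted p = 0.025) and had a slope of 0.24 (0.08 to 0.41, adjusted p = 0.053).

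Of the other glycosidases 3 rose with the index. Man2b1, lysosomal alpha-mannosidase, was at 8.11, 7.55, 7.36 and 7.52 in WT, 7.70, 7.41, 7.28 and 7.92 in Sp3+/- and 8.15, 8.80 and 8.93 in Sp3-/-. It passed both tests, with 1.00 ± 0.24 (SE, adjusted p = 0.033) between genotypes and a slope of 0.24 (0.11 to 0.38, adjusted p = 0.024). Hexa, which acts on gangliosides, was at 9.28, 8.39, 8.39 and 8.61 in WT, 8.54, 8.44, 8.34 and 8.80 in Sp3+/- and 8.59, 9.47 and 9.57 in Sp3-/-. Gusb, beta-glucuronidase, was at 7.88, 7.23, 7.11 and 7.12 in WT, 7.14, 7.14, 7.04 and 7.58 in Sp3+/- and 7.37, 8.56 and 8.49 in Sp3-/-. In both of these WT 468-4 lay well above Sp3-/- 685-1, and the slopes passed, at 0.29 (0.14 to 0.44, adjusted p = 0.017) for Hexa and 0.32 (0.16 to 0.47, adjusted p = 0.014) for Gusb. The genotype differences did not, at 0.56 ± 0.31 (SE, adjusted p = 0.23) and 0.86 ± 0.32 (SE, adjusted p = 0.095). Gaa, Glb1, Sgsh and Ids, which degrade glycogen, galactosides and sulphated glycans, passed neither test. Gaa ranged from 8.93 to 9.47, Glb1 from 6.80 to 7.56, Sgsh from 5.00 to 5.65 and Ids from 5.98 to 6.63. Ids gave the lowest estimate of the 39 members, -0.28 ± 0.14 (SE, adjusted p = 0.19), and was lowest in the Sp3-/- libraries 697-2 and 697-5.

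A further 3 members of the lumen and membrane rose in Sp3-/- cells without a slope that passed. Grn encodes progranulin, which is cut to granulins in the lysosome, Tpp1 a tripeptidyl peptidase and Mcoln1 the channel that releases lysosomal calcium. Grn was at 9.67, 9.61, 9.42 and 9.55 in WT, 9.75, 9.42, 9.38 and 9.72 in Sp3+/- and 9.79, 10.61 and 10.38 in Sp3-/- and rose by 0.74 ± 0.20 (SE, adjusted p = 0.042), with a slope of 0.11 (-0.04 to 0.27, adjusted p = 0.27). Tpp1 was at 9.23, 8.98, 9.02 and 8.91 in WT, 9.05, 9.14, 9.02 and 9.12 in Sp3+/- and 9.41, 9.52 and 9.42 in Sp3-/- and rose by 0.41 ± 0.11 (SE, adjusted p = 0.041). Mcoln1 was at 6.29, 6.11, 6.04 and 5.98 in WT, 6.22, 5.98, 5.99 and 6.05 in Sp3+/- and 6.48, 6.65 and 6.86 in Sp3-/- and rose by 0.56 ± 0.13 (SE, adjusted p = 0.027). In none of these 3 did a Sp3-/- library fall within the WT range, and for Grn 697-2 and 697-5 lay well above 685-1. The major membrane glycoproteins Lamp1 and Lamp2 passed neither test. Lamp1 was at 11.11, 10.67, 10.70 and 10.69 in WT, 10.80, 10.75, 10.76 and 10.89 in Sp3+/- and 10.72, 11.24 and 11.16 in Sp3-/-, with 0.25 ± 0.19 (SE, adjusted p = 0.36) between genotypes and a slope of 0.14 (0.04 to 0.24, adjusted p = 0.064). Lamp2 ranged from 8.80 to 9.80.

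**Figure D4:**
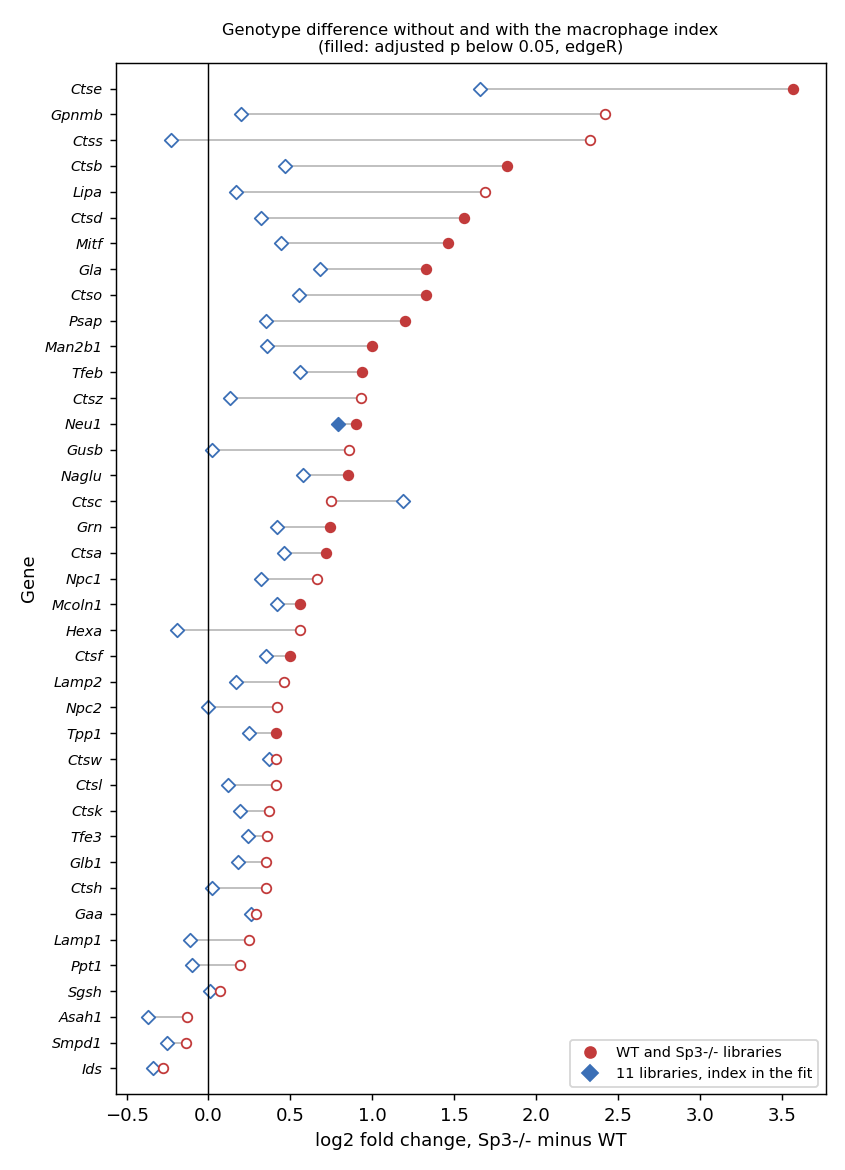
Log2 fold change of Sp3-/- against WT for each of the 39 genes, as red circles from the 7 WT and Sp3-/- libraries and as blue diamonds from the fit of 11 libraries with the macrophage index, filled where the adjusted p is below 0.05. Most diamonds lie left of their circles, farthest for Gpnmb and Ctss. Neu1 alone of the 39 is filled in both, where 3.16% of all genes were called higher with the index in the fit.

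The factors that bind the palindromic core differed among themselves. Tfeb, on chromosome 17 (chr17:47737037-47792416), was at 3.70, 3.49, 3.28 and 3.50 in WT, 3.49, 3.45, 3.24 and 3.81 in Sp3+/- and 4.26, 4.56 and 4.49 in Sp3-/-, a low level at which the 3 Sp3-/- libraries lay above all others. It rose by 0.94 ± 0.14 (SE, adjusted p = 0.011), or 1.92-fold, with a slope of 0.15 (0.05 to 0.25, adjusted p = 0.044) and 0.56 ± 0.16 (adjusted p = 0.062) at equal index, short of the threshold. Mitf was at 4.11, 3.00, 3.43 and 3.14 in WT, 2.89, 3.34, 3.36 and 3.83 in Sp3+/- and 4.15, 5.29 and 5.15 in Sp3-/-, and rose both with genotype, by 1.46 ± 0.35 (SE, adjusted p = 0.033), and with the index, at 0.39 (0.24 to 0.54, adjusted p = 0.0046). Tfe3, the most abundant of the 3 by length, was at 6.22, 6.30, 6.18 and 6.22 in WT, 6.19, 6.21, 6.23 and 6.22 in Sp3+/- and 6.28, 6.79 and 6.66 in Sp3-/-, with 0.36 ± 0.13 (SE, adjusted p = 0.088) and a slope of 0.04 (-0.05 to 0.14, adjusted p = 0.51). Per kilobase of transcript the WT means were 4.79 CPM for Tfeb, 2.24 for Mitf and 22.0 for Tfe3.

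On that same scale per kilobase the WT level spread widely over the members, from 1750 CPM per kilobase for Ctsd, 742 for Psap, 695 for Lamp1 and 492 for Ctsb down to 1.87 for Ctso, 0.506 for Ctsw and 0.0677 for Ctse. The lengths are those of the canonical transcript in a later annotation than the one counted.

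A set of 3 libraries, 1 of each genotype, had nearly the same index, WT 468-4 (7.52), Sp3+/- 697-4 (7.23) and Sp3-/- 685-1 (7.39), and all lack a title suffix. Set side by side without a test, a choice made after their values were seen, Sp3-/- 685-1 was above both others in 18 of 39 members, where it was above both in 42.2% of all genes. Ctss was at 8.63, 7.84 and 8.17 in these, Ctsb at 12.07, 11.69 and 12.11 and Ctsd at 12.67, 12.41 and 12.49. Neu1 was at 6.36, 6.49 and 7.11 and Tfeb at 3.70, 3.81 and 4.26. Within Sp3-/- cells, 697-2 and 697-5 exceeded 685-1 in 31 of 39 members and lay below it in 3. The share over all genes was not computed, so these counts are a description and no result about the members. When the title suffix was a term in the fit, 3 members passed between Sp3-/- and WT, Neu1 (0.82, adjusted p = 0.007), Tfeb (0.66, adjusted p = 0.036) and Naglu (0.62, adjusted p = 0.035), all by edgeR, where 9.41% of all genes passed, so that 3 of 39 is no result about the members. With only the 4 libraries of these genotypes that have no suffix, 0 passed, as did 0 of all genes, with 1337 genes below an unadjusted p of 0.05, and Neu1 was at 0.83. Within the 5 libraries without a suffix 7 members had a slope that passed, without a genotype term, Ctsb, Ctss, Gla, Gpnmb, Lipa, Mitf and Npc1, from 0.65 to 1.18, where 2.23% of all genes passed, and the median slope of the members was 0.39. In this set the index is high only in Sp3-/- 697-2 (8.93) and 697-5 (8.73), against 7.23 to 7.52 in the rest. The slope there rests mainly on these Sp3-/- libraries, so index and genotype cannot be told apart in it. Within the 6 with a suffix, whose index spans 0.86 against 1.70 in the others, 0 passed, with 512 of all genes below an unadjusted p of 0.05, and the median slope was -0.12.

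Other genes of the lysosomal pathway were described from lists that exclude the members, and their counts stand against the 8.76% of all genes that rose between Sp3-/- and WT, the 9.77% that fell and the 8.56% that rose with the index. Of 16 V-ATPase subunits tested, the pump that acidifies the lumen, 5 rose and 0 fell between Sp3-/- and WT (median 0.64), Atp6v1b2 (1.21), Atp6v1a (0.92) and Atp6v1h (0.82) the most of those called. The slope passed in 12 of 16, with a median of 0.20. The subunit Atp6v0d2, of osteoclasts and macrophages, had a slope of 1.23 and at equal index fell by 1.67 (adjusted p = 0.031). It was the 1 of 16 subunits called there, where 3.81% of all genes were called lower. Among 23 further hydrolases and their cofactors 5 rose and 1 fell (median 0.36), the rises led by the legumain gene Lgmn (1.65) and Galc (1.22), and the fall was that of Prcp (-1.02). Among 17 other membrane proteins and transporters 8 rose and 0 fell (median 0.57), led by Cln3 (1.62), Scarb2 (0.90) and Slc17a5 (0.86). Scarb2, the receptor that carries glucocerebrosidase to the lysosome, had a slope of 0.05 and still differed at equal index (0.78, adjusted p = 0.022). The slope passed in 6 of the hydrolases and in 5 of the transporters, positive in each.

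Against the same shares of all genes, 3 of 12 sorting genes rose and 1 fell (median 0.51). Those that rose were Gnptab, which builds the mannose 6-phosphate tag, and the sorting factors Sort1 and Gga3 (0.62 each), and the one that fell was Igf2r, the cation-independent mannose 6-phosphate receptor (-0.85, adjusted p = 0.04). Of 18 regulators upstream of TFEB, 4 rose and 0 fell (median 0.27), led by Fnip2 (1.61), Lamtor3 (0.59) and Rragc (0.53). Of 6 cystatins and serpins that inhibit cathepsins, 2 rose and 0 fell (median 0.88), the macrophage cystatin gene Cst7 (3.27, slope 0.95) and Cstb (0.77, slope 0.16). Of 15 autophagy genes 3 rose and 1 fell (median 0.25), with Atg7 at 0.90, Vps18 at 0.79 and Wipi1 at -0.79. These 7 lists were chosen with earlier results of these data known, as was the list of members.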

How the data were processed

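Gene counts of 11 RNA-seq libraries were analysed. The authors deposited raw counts per gene symbol, made from 50 bp single-end TruSeq reads with FastQC 0.10.1, STAR 2.4.5a on mm10 and htseq-count, per the labels and the study's methods. Neither the strand setting nor the annotation version is given in the sources used here, so antisense reads may be included. Between 38.4% and 40.9% of tallied reads were assigned to no gene and left out. Totals on genes ran from 9849111 to 59297495, and no 2 libraries of a genotype agreed within counting noise (lowest chi-square per degree of freedom 15.8).

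A gene entered a fit if any of its libraries had more than 1 CPM. Tests were those of edgeR 4.0.16 in R 4.3.3 (TMM, robust quasi-likelihood), with Benjamini-Hochberg adjustment over all genes tested and a threshold of 0.05. Sp3-/- against WT used those 7 libraries, and the other fits all 11. The study used limma-voom, which is an alternative here (limma 3.58.1, DESeq2 1.42.0). Levels are log2 CPM with a prior count of 2. The fits were tested on simulated data. Coordinates are from RefSeq GRCm38.p6, and transcript lengths from GENCODE for GRCm39. Replicate numbers follow accession order and only name libraries. The first label number was run as a block. The members, lists and tests were chosen with earlier results of these data known. Values by library are given for every member called in the comparison with WT or with the index, for Tfeb, Tfe3, Mitf, Ctsk, Ctsl, Ctsb, Ctsd, Ctss, Lamp1, Grn and Gpnmb and for the 4 most abundant members whose slope intervals lay below 1. Of each other list at most 3 of the called genes with the largest change are named, 1 listed gene is not reported here, and Atp6v0d2 was named after its values were seen.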

Additional observations from a re-analysis of the deposited data

Results flagged for a closer look

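In a group of 4 libraries, a library was singled out where its gap to the nearest other took up more of the group's whole range than Dixon's 95% critical value allows. Of 78 groups of 4 (39 members in WT and in Sp3+/-) 13 had such a library, 16.7%, where chance alone gives about 1 in 20, and the groups share libraries. In 9 of them it was WT 468-4 and the highest value: Ctsb (12.07), Ctsd (12.67), Ctss (8.63), Ctsz (8.79), Lamp1 (11.11), Gusb (7.88), Lipa (9.01), Psap (11.51) and Ppt1 (7.42), all on the log2 CPM scale. In 3 it was Sp3+/- 697-4 and the highest value, Ctsb (11.69), Lipa (8.41) and Gpnmb (11.03). The last was a low value of Ids in Sp3+/- 468-3 (6.14). The macrophage index of WT 468-4 was 7.52 against 5.11 to 5.33 in the other WT libraries, and that of Sp3+/- 697-4 7.23 against 4.47 to 5.11 in the other Sp3+/- libraries. Its part in these values was not tested, and neither library's title carries a suffix.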

How the results depend on the processing

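The median log2 fold change of the members between Sp3-/- and WT kept its sign and stayed within the spread between libraries in all 20 alternatives, from 0.37 to 0.83, with 0.43 under the suffix covariate, 0.37 in libraries without a suffix and 0.51 to 0.83 with 1 library left out. Brackets after the counts below give the share of all genes called in either direction in the same fit. The 16 members called in that comparison (18.5%) became 3 with the title suffix as a covariate (9.41%) and 0 with only libraries without a suffix (0%). They became 22 with DESeq2 (30.7%) or with all 11 libraries in 1 fit (28.1%) and 23 with the first label number as a replicate block (28.7%). A consensus correlation within that number gave 19 (21.6%), upper quartile factors 13 (18.9%), and 1 library left out 1 (2.01%) to 23 (29.9%). The 22 calls against Sp3+/- (25.5%) became 3 with the suffix covariate (5.4%) and 11 (10.6%) to 25 (24.6% and 30.1%) with 1 library left out. The 15 calls with the macrophage index (16%) became 8 with that replicate block (7.14%) and 31 without the genotype term (41%). They became 7 in the 5 libraries without a suffix (2.23%) and 0 in the 6 with one (0%). Without both WT 468-4 and Sp3+/- 697-4 they became 1 (1.01%), and with 1 library left out 5 (3.96%) to 20 (14.4%). The fits within the 5 and the 6 libraries and the fit without both libraries were added after the data were seen. Calls at equal index (1) became 3 with DESeq2, 2 with limma-voom, 2 with the index from Cd68 alone, 0 without both of those libraries, and 0 to 2 with 1 library left out. Calls between Sp3+/- and WT stayed at 0 in all 21 alternatives. In the 6 libraries with a suffix the slope turned negative, without a call, for Ctsd (-0.17), Ctso (-0.08), Ctsz (-0.10), Hexa (-0.03), Psap (-0.11), Man2b1 (-0.24) and Tfeb (-0.01), over an index range of 0.86. The cause was not tested. Over all genes, calls between Sp3-/- and WT went from 2599 to 4297 with DESeq2, 4031 with the block, 1329 with the suffix covariate and 282 without Sp3-/- 697-2. Replicate numbers follow accession order and only name libraries. The first label number, whose meaning is not stated, was the replicate block, and with it Ctsl, Ctss, Ctsz, Hexa, Gusb, Lipa and Gpnmb also passed between Sp3-/- and WT. In that comparison WT 468-4 is the only library of its number, so the block takes it out of the genotype difference. The fit is thus close to the one without WT 468-4, where 23 members also passed, and is no separate support.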
